A study of Mus musculus with 12 samples.

Results

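Microglia, the resident macrophages of the brain, were followed through 32 marker genes in bulk RNA sequencing of mouse frontal cortex. The markers were the rows of the gene count table whose Ensembl identifier maps to 1 of 32 listed symbols. All 32 were found among the 47069 genes of the table, and all 32 were among the 17286 genes with enough counts to be tested. The rule uses symbols and no measured value. By role they are 7 receptors (Cx3cr1, P2ry12, P2ry13, P2ry6, Gpr34, Csf1r and Csf3r), 5 surface proteins (Tmem119, Selplg, Slc2a5, Itgam and Ptprc), 9 immune receptors and their signal partners (Trem2, Tyrobp, Fcer1g, Fcgr3, Fcrls, Siglech, Ly86, Inpp5d and Unc93b1), 3 complement genes (C1qa, C1qb and C1qc), 4 lysosomal genes (Ctss, Lgmn, Cd68 and Laptm5), the transcription factors Spi1 and Irf8, and Aif1 and Olfml3. The 12 libraries came from male C57BL/6 mice and formed 4 groups of 3. Labelled knockout mice, HDAC2(loxP,loxP) with CamKIIa-Cre(+,-), were given clozapine at 10 mg/kg or vehicle, and wild-type mice were given the same 2 treatments. Series text calls the clozapine treatment chronic. Ages and durations of treatment are not given in the sources used here. Clozapine is an antipsychotic drug that blocks serotonin and dopamine receptors among others. The CamKIIa promoter drives Cre in forebrain neurons and not in microglia, so the labelled deletion of Hdac2, a histone deacetylase, concerns neurons.

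Microglia survive on the cytokines CSF1 and IL-34 through the receptor Csf1r, and sense their surroundings through purine receptors and through Cx3cr1, which binds the neuronal chemokine fractalkine (Cx3cl1). Activating receptors such as Trem2 signal through the adapter Tyrobp, and the phosphatase Inpp5d (SHIP1) limits that signal. In the cortex microglia make most of the complement protein C1q, built from the chains C1qa, C1qb and C1qc, which tags synapses and debris for uptake. Lysosomal proteases such as Ctss and Lgmn break the cargo down. Several markers (C1q, Csf1r, Cx3cr1, Aif1, Cd68, Ptprc) are also made by macrophages at the brain borders.

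Levels of 1 gene are given as CPM, the count scaled by a TMM-corrected library size, and comparisons between genes as TPM, which also divides by exonic length. Within a group the libraries are given by replicate number, which was 3, 4 and 5 for knockout clozapine, 2, 4 and 5 for knockout vehicle, 2, 3 and 5 for wild-type clozapine and 1, 3 and 4 for wild-type vehicle. Total counts per library lay between 23408372 and 28069638. Hdac2 itself, counted over the whole gene so that the loss of single exons would not show, was at 73.9, 70.5 and 71.2 CPM in knockout clozapine libraries, 75.4, 76.6 and 73.3 CPM in knockout vehicle libraries, 75.5, 72.4 and 73.5 CPM in wild-type clozapine libraries and 75.7, 63.4 and 70.0 CPM in wild-type vehicle libraries. It was not lower in the libraries labelled knockout, so the genotype directions rest on the labels. The labels give a group and a number for each library but not that each came from a separate animal, so p-values speak of the spread among libraries. Border macrophage genes summed to 79.99 to 110.3 CPM per library and blood leukocyte genes to 12.8 to 18.3 CPM, and 7 of 16 leukocyte genes, among them Cd3e and Cd8a, had under 10 counts in every library. Neuronal genes, the mark of cortex tissue, summed to 14017 to 16042 CPM.

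All 32 markers were detected in every library, with 49 to 3097 counts per library. Per length, the highest were Lgmn at 136 TPM, C1qa at 129.7 TPM and C1qb at 118 TPM. The lowest were Irf8, an interferon regulatory factor that acts with PU.1, at 2.01 TPM, Itgam (CD11b) at 1.99 TPM and Ptprc (CD45) at 0.431 TPM. The classical surface and receptor markers lay between these, with Csf1r at 46.2 TPM, Tmem119 at 31.9 TPM, P2ry12 at 30.0 TPM and Cx3cr1 at 27.9 TPM. Across the 12 libraries Lgmn was the steadiest, with a highest value 1.17 times its lowest, and Csf1r varied by 1.21 times. Itgam and Aif1 (IBA1, an actin-bundling protein) varied most, by 2.05 times each. Exons of 4 markers overlap another annotated gene (Csf1r, P2ry12, Cx3cr1 and Itgam), and the deposited values of Fcgr3 and Siglech were not whole numbers in some libraries, so reads of these 6 may be shared with other genes.

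**Figure D1:**
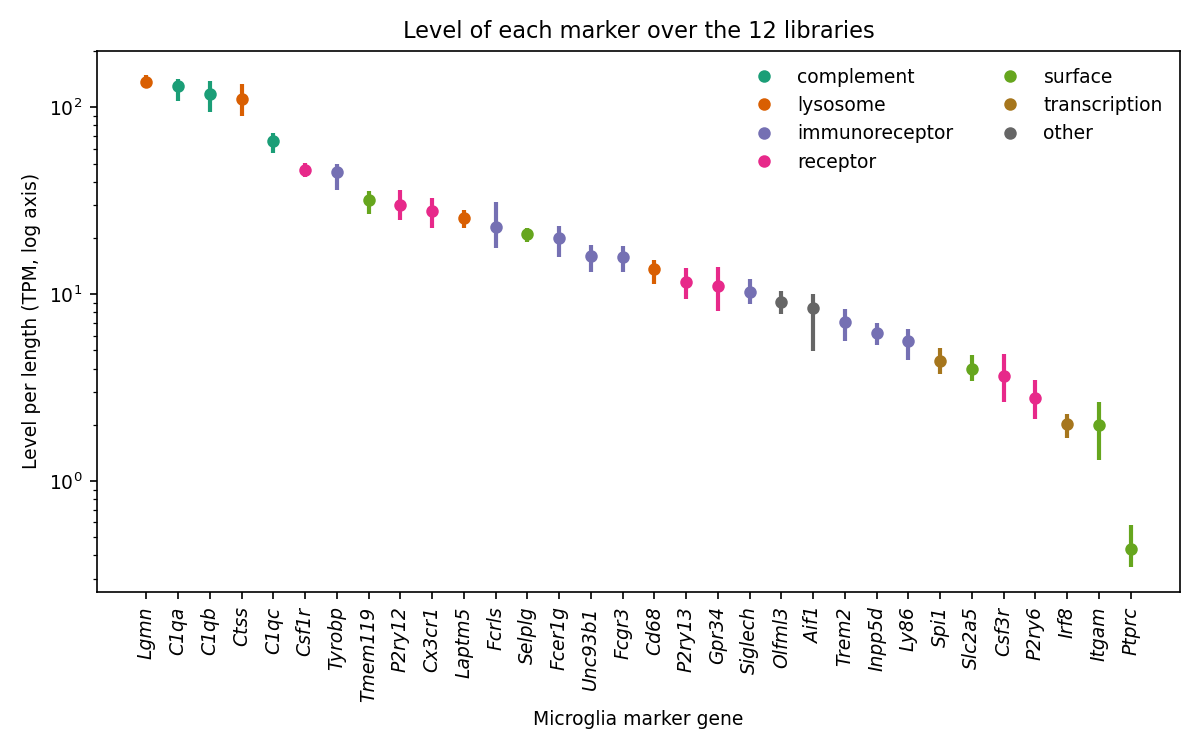
Level of each of the 32 microglia markers per length (TPM, log axis), ordered from high to low and coloured by role. Points are means of 12 libraries and bars run from the lowest to the highest library. Lgmn, C1qa, C1qb and Ctss lie above 100 TPM and Ptprc lies at 0.431 TPM.

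Under vehicle, 3 markers were higher in the labelled knockout than in wild type and none was lower: C1qb, Ctss and Inpp5d. They are 3 of 32 at a Benjamini-Hochberg adjusted p under 0.05 in the quasi-likelihood test of edgeR. Of all tested genes 9.16% were called in this comparison, 4.01% higher and 5.15% lower, so the markers' share lies near that of all genes. DESeq2 called 2 of the markers and limma-voom 3. At an unadjusted p under 0.05 there were 7 of 32, against 23.8% of all genes. The 250 bases before the start of each of these 3 genes are shown here as RefSeq gives them for GRCm38.p6, 5′ to 3′ on the gene's own strand, because they are the genes that passed. Capitals mark GAGGAAG, the core of the motif bound by PU.1 (Spi1), the factor that sets myeloid identity. C1qb lies at chr4:136886201-136886450 on the minus strand, Ctss at chr3:95526536-95526785 on the plus strand and Inpp5d at chr1:87620062-87620311 on the plus strand.
C1qb: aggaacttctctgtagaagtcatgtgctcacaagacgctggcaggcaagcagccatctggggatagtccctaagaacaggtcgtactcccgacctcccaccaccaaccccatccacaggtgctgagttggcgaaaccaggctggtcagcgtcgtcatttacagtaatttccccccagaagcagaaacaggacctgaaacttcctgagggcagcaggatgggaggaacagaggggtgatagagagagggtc
Ctss: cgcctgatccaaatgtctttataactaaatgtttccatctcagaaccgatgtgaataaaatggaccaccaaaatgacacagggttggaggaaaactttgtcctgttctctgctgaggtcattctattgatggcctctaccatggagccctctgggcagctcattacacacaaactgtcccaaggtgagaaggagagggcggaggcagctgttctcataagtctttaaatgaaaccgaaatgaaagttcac
Inpp5d: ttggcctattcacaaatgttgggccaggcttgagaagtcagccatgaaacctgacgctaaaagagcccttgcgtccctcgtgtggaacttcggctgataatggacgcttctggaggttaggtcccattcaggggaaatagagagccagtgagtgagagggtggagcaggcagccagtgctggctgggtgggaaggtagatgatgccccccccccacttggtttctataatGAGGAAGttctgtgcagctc
Searched on either strand, GAGGAAG was in the window of Inpp5d and not in those of C1qb and Ctss. Of the 32 markers 23 had a window in the table, and 9 of these held it (C1qc, Csf3r, Fcgr3, Fcrls, Inpp5d, Itgam, Laptm5, P2ry13 and Trem2), which is 39.1%, against 12.004% of the windows of 27025 genes. The composite motif of PU.1 with an interferon regulatory factor, GGAA and GAAA with any 2 bases between them on either strand, was in 0 of 23 marker windows and in 2.68% of all windows. A match is a run of letters only, and the binding of a factor was not measured.

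C1qb, the B chain of C1q, was at 49.0, 48.2 and 52.0 CPM in knockout vehicle libraries, against 39.1, 37.4 and 43.3 CPM in wild-type vehicle libraries. Every knockout library lay above every wild-type one. The log2 difference was 0.32 (SE 0.08, 95% interval 0.14 to 0.49, edgeR adjusted p = 0.0245). Its neighbours in the same cluster on chromosome 4 (GRCm38, 136880129 to 136898803) did not pass. C1qa was at 48.8, 47.7 and 51.0 CPM in knockout vehicle libraries and 43.4, 41.0 and 45.8 CPM in wild-type vehicle libraries, without overlap (log2 difference 0.18, edgeR adjusted p = 0.134). C1qc was at 43.3, 44.2 and 47.8 CPM in knockout vehicle libraries and 42.4, 40.8 and 46.3 CPM in wild-type vehicle libraries, which overlapped. The ratio of C1qb to C1qa, per length, was 0.960, 0.964 and 0.973 in knockout vehicle libraries and 0.861, 0.872 and 0.902 in wild-type vehicle libraries, without overlap. Under clozapine it was 0.870, 1.06 and 1.02 in knockout libraries and 0.867, 0.736 and 0.812 in wild-type libraries, again without overlap.

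Ctss, the cysteine protease cathepsin S, was at 62.4, 57.6 and 62.8 CPM in knockout vehicle libraries, against 53.8, 41.6 and 48.5 CPM in wild-type vehicle libraries. The groups did not overlap, and the log2 difference was 0.35 (SE 0.10, 95% interval 0.14 to 0.55, edgeR adjusted p = 0.0369). The other lysosomal markers differed less: Lgmn, Laptm5 and Cd68 had log2 differences of 0.01, 0.07 and 0.02. Inpp5d was at 16.7, 17.7 and 16.4 CPM in knockout vehicle libraries and 14.2, 13.8 and 14.6 CPM in wild-type vehicle libraries, again without overlap. Its log2 difference was 0.25 (SE 0.08, 95% interval 0.09 to 0.42, edgeR adjusted p = 0.0474), the closest of the 3 to the threshold.

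These 3 calls rest on few libraries. Without knockout vehicle 2, without knockout vehicle 5 or without wild-type vehicle 3, edgeR called 0 of 32 markers in this comparison, and without wild-type vehicle 1 or wild-type vehicle 4 it called 1. Adjusting for the length and GC content of genes left 1, Inpp5d. C1qb and Ctss each passed in 17 of 23 alternatives, and Inpp5d in 9. Inpp5d was also lost with DESeq2, with another scaling and in a fit of the 2 groups alone. It was lost without any 1 of the knockout clozapine libraries, which are not in this comparison. The log2 differences stayed positive in all 23 alternatives, between 0.17 and 0.38 for C1qb, between 0.25 and 0.44 for Ctss and between 0.22 and 0.29 for Inpp5d.

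Among the remaining immune receptors and their partners, none passed under vehicle. Ly86 (MD-1, the partner of the receptor RP105) was at 7.14, 7.63 and 7.65 CPM in knockout vehicle libraries and 6.40, 5.42 and 5.35 CPM in wild-type vehicle libraries, without overlap (log2 difference 0.39, edgeR adjusted p = 0.0630). Trem2, the lipid-sensing receptor, was at 12.6, 13.2 and 14.2 CPM in knockout vehicle libraries and 11.1, 10.1 and 11.7 CPM in wild-type vehicle libraries, without overlap (log2 difference 0.29, edgeR adjusted p = 0.144). Its adapter Tyrobp had a log2 difference of -0.024. In all, 7 of 32 markers had every knockout library above every wild-type library and 0 the reverse, beside 13.2% and 14.2% of all genes. The median log2 difference of the markers was 0.07, with 23 of 32 above 0, against a median of 0.00 and 50.9% above 0 over all genes.

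The homeostatic receptors and surface markers showed no call under vehicle. Cx3cr1 was at 48.0, 41.6 and 39.7 CPM in knockout vehicle libraries and 51.4, 41.9 and 42.2 CPM in wild-type vehicle libraries. Tmem119, a transmembrane protein used to mark microglia, was at 24.6, 24.7 and 25.9 CPM in knockout vehicle libraries and 25.2, 23.9 and 26.7 CPM in wild-type vehicle libraries. In both genes the groups overlapped, with log2 differences of -0.07 and -0.01. P2ry12, the ADP receptor that guides process movement, had a log2 difference of 0.23 with overlapping groups, and Csf1r one of 0.05. Spi1 and Irf8, the transcription factors, had log2 differences of 0.10 and 0.06. Slc2a5, the fructose transporter GLUT5, had every knockout library above every wild-type one (log2 difference 0.19, edgeR adjusted p = 0.339). Siglech, a sialic acid-binding lectin, had a log2 difference of 0.21 and Fcer1g, the adapter of Fc receptors, one of 0.12. The lowest differences belonged to P2ry13, an ADP receptor, Ptprc, a leukocyte phosphatase, and Fcgr3, at -0.10 each.

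**Figure D2:**
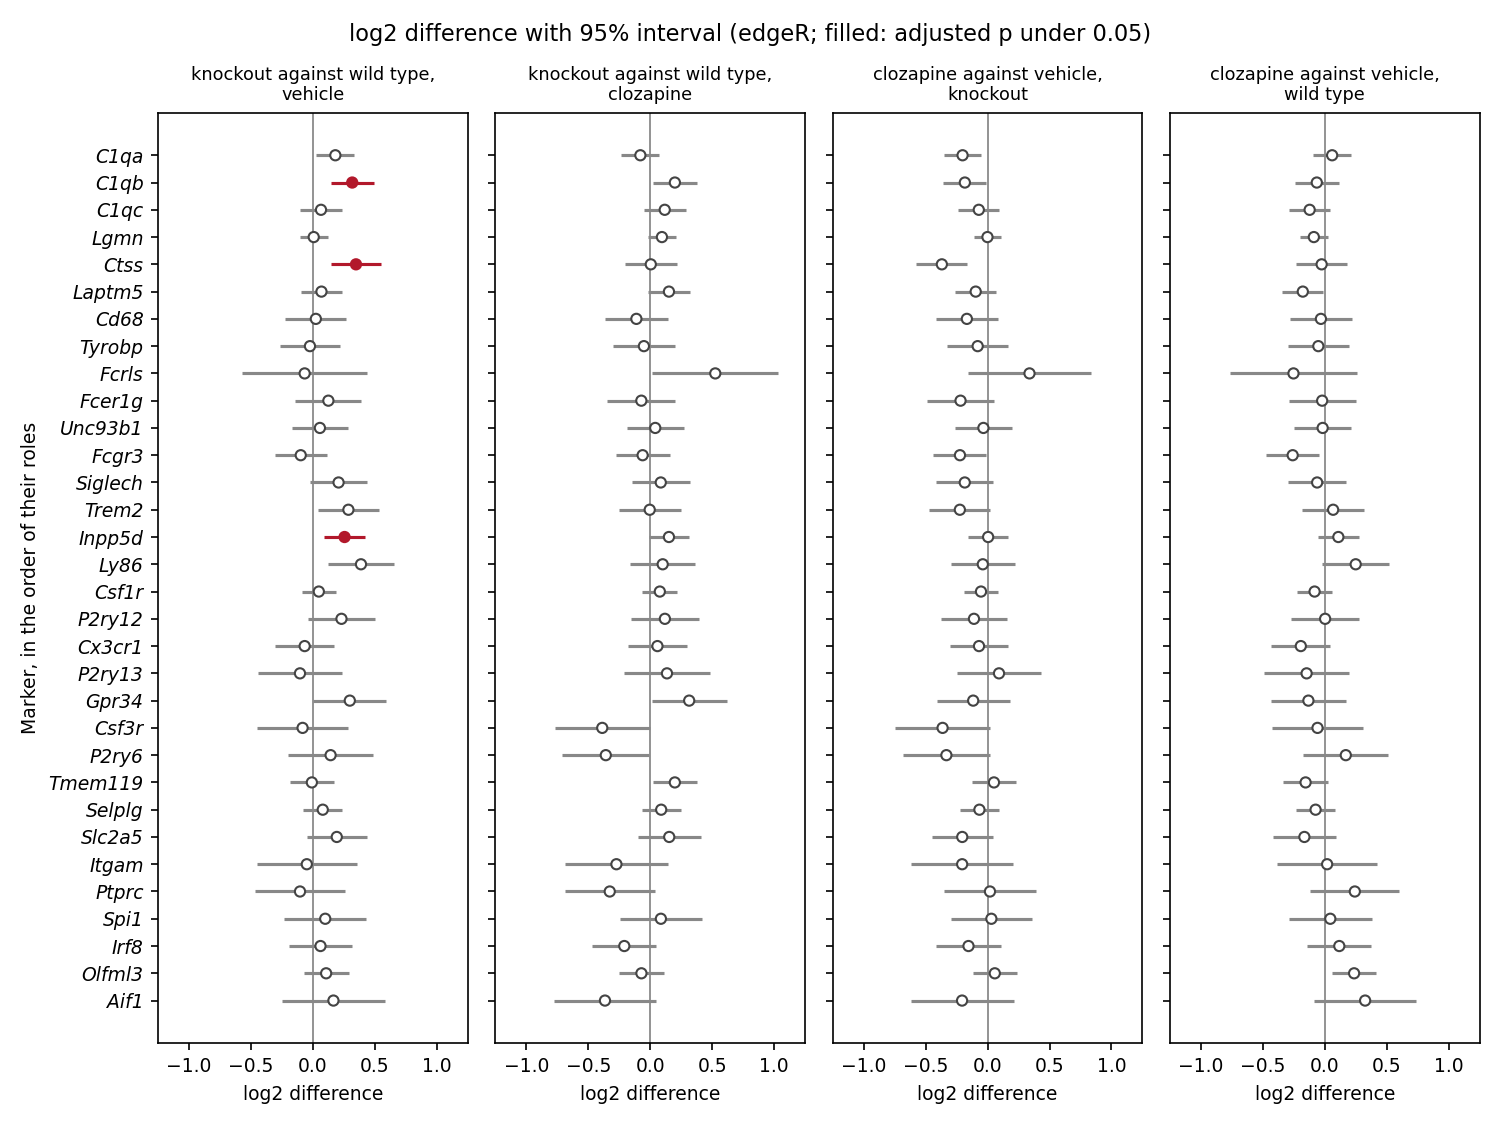
log2 difference of each marker, ordered by role, with its 95% interval from edgeR in 4 comparisons. Left to right are labelled knockout against wild type under vehicle and under clozapine, then clozapine against vehicle in the labelled knockout and in wild type. Filled points passed an adjusted p under 0.05, and only C1qb, Ctss and Inpp5d under vehicle did.

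Averaged over both treatments, 2 markers were higher in the labelled knockout and 0 were lower by edgeR, beside 5.52% of all genes higher and 5.01% lower (10.5% called in either direction). At an unadjusted p under 0.05 there were 5 of 32, against 25.5% of all genes. C1qb had a log2 difference of 0.26 (SE 0.06, 95% interval 0.13 to 0.38, edgeR adjusted p = 0.0101), and the 6 knockout libraries lay between 41.5 and 52.0 CPM against 33.8 to 43.3 CPM in the 6 wild-type libraries. It passed in all 22 alternatives run for this comparison, with edgeR, DESeq2 and limma-voom and without any single library. Inpp5d had a log2 difference of 0.20 (SE 0.05, 95% interval 0.09 to 0.32, edgeR adjusted p = 0.0246) and lay between 16.3 and 17.7 CPM in the 6 knockout libraries, against 13.8 to 16.9 CPM in the 6 wild-type libraries. It passed in 15 of 22 alternatives and was lost in 6 of the 12 that left out 1 library (without knockout clozapine 3 or 5, knockout vehicle 4, wild-type clozapine 3 or 5, or wild-type vehicle 3), where the adjusted p reached 0.0651. Gpr34, the receptor of lysophosphatidylserine, came next and did not pass (log2 difference 0.31, edgeR adjusted p = 0.0624).

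Under clozapine 0 of 32 markers passed between the genotypes by edgeR, DESeq2 or limma-voom, beside 345 of all genes (2.0%) by edgeR. At an unadjusted p under 0.05 there were 6 of 32, against 15.9% of all genes. The groups did not overlap in 1 marker upward and 2 downward, beside 11.8% and 10.7% of all genes. The 4 of smallest p were C1qb, Tmem119, Gpr34 and Fcrls, with positive differences, and the other 2 of the 6 were P2ry6 (-0.36) and Csf3r, a receptor of the growth factor G-CSF (-0.39), with negative ones. C1qb was at 42.4, 41.5 and 47.5 CPM in knockout clozapine libraries and 43.1, 33.8 and 37.6 CPM in wild-type clozapine libraries, which overlapped (log2 difference 0.20, edgeR adjusted p = 0.249). Tmem119 was at 26.9, 22.7 and 28.4 CPM in knockout clozapine libraries and 22.9, 20.5 and 24.5 CPM in wild-type clozapine libraries (log2 difference 0.20, edgeR adjusted p = 0.263). Gpr34 had a log2 difference of 0.31, close to its 0.30 under vehicle. The median over the markers was 0.07 against -0.00 over all genes, and its direction depended on single libraries: it was -0.031 without knockout clozapine 5 and -0.0059 without wild-type clozapine 3.

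Clozapine in the labelled knockout moved no marker past the threshold: edgeR called 0 of 32 and limma-voom 0, beside 0.0231% of all genes by edgeR, and DESeq2 called 1, Ctss, as did edgeR with 1 surrogate variable. Ctss was at 48.7, 41.1 and 51.8 CPM in knockout clozapine libraries, against 62.4, 57.6 and 62.8 CPM in knockout vehicle libraries. Every clozapine library lay below every vehicle library (log2 difference -0.37, SE 0.10, 95% interval -0.57 to -0.16, edgeR adjusted p = 0.133), while the DESeq2 adjusted p was 0.0188. Over the other 21 alternatives that did not call it the edgeR or limma-voom adjusted p lay between 0.0996 and 0.385. The other markers of smallest p were C1qa, C1qb and Fcgr3, a low-affinity IgG receptor, with log2 differences of -0.20, -0.18 and -0.22. At an unadjusted p under 0.05 there were 4 of 32, beside 12.2% of all genes.

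Most marker values lay lower with clozapine in the labelled knockout, and how many did depended on single libraries. Of 32 markers 25 had a negative log2 difference, with a median of -0.10 against -0.00 over all genes, of which 50.7% were negative. In 7 of 32 every clozapine library lay below every vehicle library and in 0 above, beside 9.02% and 9.72% of all genes. Without knockout clozapine 4 the median was -0.02 and 14 of 32 markers were positive. Without knockout clozapine 5 the median was -0.18 and 2 were positive.

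In wild type clozapine likewise left 0 of 32 markers past the threshold by edgeR, DESeq2 or limma-voom, beside 0.816% of all genes by edgeR. At an unadjusted p under 0.05 there were 3 of 32, against 11.6% of all genes. Olfml3, a secreted olfactomedin-like glycoprotein, was at 20.2, 19.7 and 20.7 CPM in wild-type clozapine libraries and 17.9, 17.6 and 15.9 CPM in wild-type vehicle libraries, without overlap (log2 difference 0.24, edgeR adjusted p = 0.254). Fcgr3 was at 9.02, 9.18 and 7.77 CPM in wild-type clozapine libraries and 11.01, 10.1 and 9.95 CPM in wild-type vehicle libraries, also without overlap (log2 difference -0.26, edgeR adjusted p = 0.285). Laptm5, a lysosomal membrane protein, was at 29.3, 29.0 and 29.6 CPM in wild-type clozapine libraries and 34.7, 31.5 and 33.4 CPM in wild-type vehicle libraries (log2 difference -0.18, edgeR adjusted p = 0.380). Ly86 was the fourth by p, with a log2 difference of 0.25. The groups did not overlap in 2 markers upward and 4 downward, beside 7.35% and 8.22% of all genes. The median was -0.04, and it was 0.02 without wild-type vehicle 1.

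Averaged over genotypes, clozapine again left 0 of 32 past the threshold by edgeR, DESeq2 or limma-voom, beside 0.150% of all genes, with 6 of 32 at an unadjusted p under 0.05 against 11.2%. Of the 32 markers 25 had a negative log2 difference, with a median of -0.07 against 0.00 over all genes, of which 49.5% were negative. Fits that left out 1 library had 4 to 10 positive, the most without knockout clozapine 4. Fcgr3 had the smallest p (log2 difference -0.24, edgeR adjusted p = 0.199), followed by Ctss (-0.20), Laptm5 (-0.14) and Olfml3 (0.15). The interaction (the knockout clozapine difference less the wild-type one) also passed for 0 of 32 markers by edgeR, DESeq2 or limma-voom, beside 0.654% of all genes. It was negative in 21 of 32, with a median of -0.11 against -0.01 over all genes, of which 51.5% were negative. At an unadjusted p under 0.05 there were 3 of 32, against 13.6%. C1qa came first (log2 interaction -0.26, edgeR adjusted p = 0.277), then Ctss (-0.34), P2ry6, a UDP receptor that triggers phagocytosis (-0.50), and Aif1 (-0.53). The 4 comparisons between single groups share groups with each other, so each is given by its own values.

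**Figure D3:**
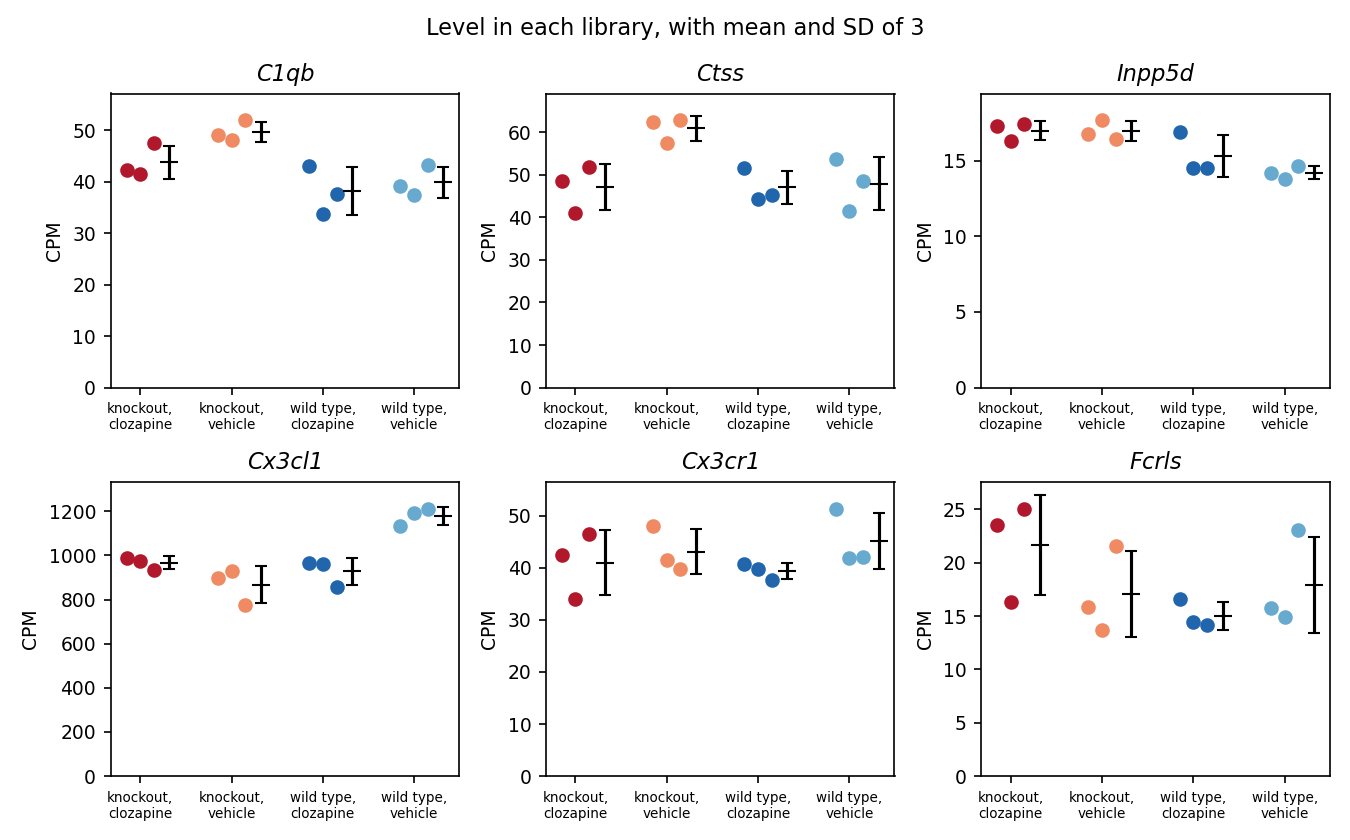
CPM of 6 genes in each library (points), by group, with the mean and SD of 3 libraries (black). C1qb, Ctss and Inpp5d are higher in knockout vehicle than in wild-type vehicle libraries, Cx3cl1 is lower, Cx3cr1 overlaps between the genotypes, and Fcrls lies between 21.5 and 25.1 CPM in 4 libraries of 3 groups and at 16.6 CPM or less in the others.

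Summed over all 32 markers, the level was 720.3, 639 and 769 CPM in knockout clozapine libraries, 766, 732 and 764 CPM in knockout vehicle libraries, 709.9, 657 and 654 CPM in wild-type clozapine libraries and 729, 657 and 725 CPM in wild-type vehicle libraries. The knockout vehicle libraries lay above the wild-type vehicle libraries by a narrow margin, and the clozapine groups overlapped with each other. Lgmn, Csf1r and Ctss made up 34.6% of this sum. The 3 C1q genes summed to 144 ± 5.93 CPM in knockout vehicle libraries and 126 ± 8.22 CPM in wild-type vehicle libraries (SD, n = 3 each). The 7 receptors summed to 190.3 ± 9.99 CPM in knockout vehicle libraries and 184 ± 15.7 CPM in wild-type vehicle libraries. In bulk tissue a difference in the number of microglia and one in RNA per microglial cell cannot be told apart.

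The signals that neurons and other cells send to microglia were read from a list of 10 ligands and partners. Between the genotypes under vehicle 1 was called higher and 1 lower by edgeR, beside 4.01% and 5.15% of all genes. Cx3cl1, the fractalkine that binds Cx3cr1, differed most. It had 899, 932 and 774 CPM in knockout vehicle libraries, against 1136, 1193 and 1212 CPM in wild-type vehicle libraries. The groups were far apart (log2 difference -0.44, SE 0.07, edgeR adjusted p = 0.000885), and the call held in all 23 alternatives. Clozapine in wild type gave 964, 961 and 859 CPM, also below wild-type vehicle (log2 difference -0.35, SE 0.07, edgeR adjusted p = 0.0211). That call was lost without wild-type clozapine 5, wild-type vehicle 3 or wild-type vehicle 4, where the adjusted p reached 0.106. In the labelled knockout clozapine gave 989, 976 and 933 CPM, all above the knockout vehicle libraries (log2 difference 0.15, edgeR adjusted p = 0.351). The interaction of Cx3cl1 passed (0.50, SE 0.09, edgeR adjusted p = 0.0288) and was lost in 5 of 12 fits without 1 library (knockout clozapine 3, 4 or 5, wild-type clozapine 5 or wild-type vehicle 3).

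The receptor Cx3cr1 did not pass in any comparison. It was at 42.5, 34.1 and 46.5 CPM in knockout clozapine libraries and 40.8, 39.8 and 37.7 CPM in wild-type clozapine libraries. The genotypes overlapped under either treatment, while every wild-type clozapine library lay below every wild-type vehicle library (log2 difference -0.19, edgeR adjusted p = 0.544). Among other ligands, Cd200, a neuronal protein that restrains microglia through Cd200r1, was at 90.5, 89.8 and 84.4 CPM in knockout vehicle libraries and 68.5, 73.0 and 78.5 CPM in wild-type vehicle libraries (log2 difference 0.27, edgeR adjusted p = 0.0163). Leaving out knockout vehicle 2, wild-type vehicle 1 or wild-type vehicle 3 ended that call. Cd47, which signals through Sirpa, was lower in the labelled knockout averaged over treatments (log2 difference -0.15, edgeR adjusted p = 0.0350), a call lost in 7 of the 12 fits without 1 library, the adjusted p reaching 0.0923. Csf1 and Il34, the ligands of Csf1r, did not pass under vehicle, with log2 differences of -0.11 and 0.00.

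Other microglia-enriched genes, 30 in number, had a median log2 difference of 0.03 between the labelled knockout and wild type under vehicle. With clozapine 23 of 30 had negative differences in wild type and 21 of 30 in the labelled knockout (medians -0.11 and -0.13), and 0 passed in either by edgeR, DESeq2 or limma-voom, with 3 and 7 at an unadjusted p under 0.05, against 11.6% and 12.2% of all genes. The smallest p belonged to Slco2b1 (-0.20) and Lpcat2 (-0.24) in wild type, and to Cd53 (-0.49) and Crybb1 (-0.33) in the labelled knockout.

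Of 23 genes of reactive microglia 17 were tested, and 6 had under 10 counts in every library (Cst7, Itgax, Clec7a, Tnf, Ccl3 and Ccl4). Under vehicle 2 of 17 were higher in the labelled knockout and 0 lower, beside 4.01% and 5.15% of all genes. Ctsz, the lysosomal protease cathepsin Z, was at 43.2, 42.6 and 44.0 CPM in knockout vehicle libraries and 29.9, 35.6 and 36.0 CPM in wild-type vehicle libraries. The groups did not overlap (log2 difference 0.35, edgeR adjusted p = 0.00569), and the call held without any single library. Cd52, a small surface glycoprotein of leukocytes, was at 2.53, 2.28 and 1.73 CPM in knockout vehicle libraries and 1.18, 1.31 and 1.23 CPM in wild-type vehicle libraries (log2 difference 0.80, edgeR adjusted p = 0.0494), and passed in 10 of 23 alternatives, 4 of them among the 12 that left out 1 library. Averaged over treatments Ctsz passed as well (log2 difference 0.23, edgeR adjusted p = 0.00771).

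Of 12 interferon-response genes 1 was called higher in the labelled knockout under vehicle, Ifit2, which binds viral RNA, beside 4.01% of all genes. It had 15.9, 14.8 and 15.5 CPM in knockout vehicle libraries and 12.3, 11.5 and 12.1 CPM in wild-type vehicle libraries (log2 difference 0.37, edgeR adjusted p = 0.0167). The call was lost without knockout vehicle 2 or wild-type vehicle 3. Averaged over treatments 1 of 12 was called higher and 0 lower, beside 5.52% and 5.01% of all genes. It was again Ifit2, and that call held in all 22 alternatives, with log2 differences between 0.23 and 0.31. With clozapine in wild type all 12 had positive differences with a median of 0.29, against 51.4% positive over all genes, yet 0 passed by edgeR, DESeq2 or limma-voom, and 5 had an unadjusted p under 0.05, against 11.6% of all genes. With clozapine in the labelled knockout 4 of 12 were positive and 8 negative, with a median of -0.04. There 0 passed by the same tools, with 0 at an unadjusted p under 0.05, against 12.2% of all genes. The interaction was negative in 11 of 12, and 0 passed by the same tools. At an unadjusted p under 0.05 there were 3, against 13.6% of all genes. Ifit3, of the same family as Ifit2, had a log2 difference of 0.45 in wild type (edgeR adjusted p = 0.116). Within the wild-type clozapine group this list was high in wild-type clozapine 2 and low in wild-type clozapine 3, with median log2 deviations of 0.36 and -0.29 from the group mean. Of 12 tested complement genes other than C1q 1 was called lower in the labelled knockout under vehicle, beside 5.15% of all genes. It was Csmd1, a complement inhibitor made by neurons, at 46.5, 55.9 and 46.1 CPM in knockout vehicle libraries and 58.2, 61.7 and 56.5 CPM in wild-type vehicle libraries. Its log2 difference was -0.25 (edgeR adjusted p = 0.0382), a call lost in 6 of 12 fits without 1 library (knockout clozapine 4 or 5, knockout vehicle 2 or 5, or wild-type vehicle 1 or 3).

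Markers of other cell types were read beside these results under vehicle, and their part in the marker results was not tested. Between the genotypes under vehicle, edgeR called 4.01% of all genes higher and 5.15% lower. An unadjusted p under 0.05 was reached by 23.8% of all genes. Border macrophage genes gave 0 calls of 12 by edgeR, DESeq2 and limma-voom, with 2 at an unadjusted p under 0.05 and a median of -0.10. They summed to 79.99 to 98.9 CPM in knockout vehicle libraries and 88.6 to 103.7 CPM in wild-type vehicle libraries, and none of them was at 0 in all libraries. Lyve1 and Maf had the smallest p, with log2 differences of -0.64 and -0.19. Endothelial genes gave 1 higher (Slco1a4) and 2 lower (Tek and Cdh5) of 10, with a median of -0.16. Each of these 3 calls was lost without some of the vehicle libraries (knockout vehicle 5, wild-type vehicle 1 or 3 for Cdh5, knockout vehicle 4, wild-type vehicle 1 or 3 for Tek, and knockout vehicle 2, 4 or 5 or wild-type vehicle 3 or 4 for Slco1a4). Astrocyte genes gave 0 calls of 12 by the same 3 tools, 0 at an unadjusted p under 0.05 and a median of -0.04, and neuronal genes 0 of 12, 5 at an unadjusted p under 0.05 and a median of -0.07. Slc1a2 (-0.14) and Aqp4 (-0.15) had the smallest p among astrocyte genes, and Stmn2 (0.14) and Neurod2 (0.18) among neuronal genes. With clozapine in the labelled knockout, where most microglia markers lay lower, all 12 border macrophage genes had positive differences with a median of 0.25, summing to 91.4 to 110.3 CPM in knockout clozapine libraries. Of these 0 passed by any of the 3 tools, with 3 at an unadjusted p under 0.05, against 12.2% of all genes. Pf4 (0.84) and F13a1 (0.45) had the smallest p. Meningeal fibroblast genes were positive in 8 of 8 there, with a median of 0.32 and 0 calls by the 3 tools, and 2 at an unadjusted p under 0.05, led by Col3a1 (0.75) and Col1a2 (0.41). With clozapine in wild type they were also positive in 8 of 8 (median 0.33), and border macrophage genes in 8 of 12 (median 0.12). Oligodendrocyte genes were negative in 10 of 11 with clozapine in the labelled knockout (median -0.10, 0 calls by the 3 tools). In wild type 9 of 11 were positive.

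The markers varied together between libraries of the same group. After group means were removed, the median Pearson correlation over 496 pairs of markers was 0.42, with 442 pairs above 0, against a median of -0.001 over all pairs of tested genes (12 libraries, with 8 degrees of freedom left after the group means). All pairs share the same libraries and scaling. Ctss and Unc93b1, which carries Toll-like receptors to endosomes, followed the other markers most closely, with mean correlations of 0.59 and 0.58, and Itgam and Slc2a5 least, with -0.06 and 0.03. The median correlation of the markers with astrocyte genes was 0.37, with endothelial genes 0.20, with border macrophage genes 0.18, with the other microglia-enriched genes 0.17 and with neuronal genes 0.01. Without knockout clozapine 4 the median over marker pairs was 0.23.

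Knockout clozapine 4 had 31 of 32 markers below the mean of its group, with a median deviation of -0.17 on the log2 scale, while 49.1% of all genes lay below. Knockout clozapine 5 had 30 of 32 above, with a median of 0.15. In knockout clozapine 4 the other microglia-enriched genes had a median deviation of -0.05, astrocyte genes -0.07, border macrophage genes -0.15, meningeal fibroblast genes -0.26 and red blood cell genes 0.62. In knockout clozapine 5 red blood cell genes had a median deviation of -0.71. The part of these in the marker values was not tested.

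**Figure D4:**
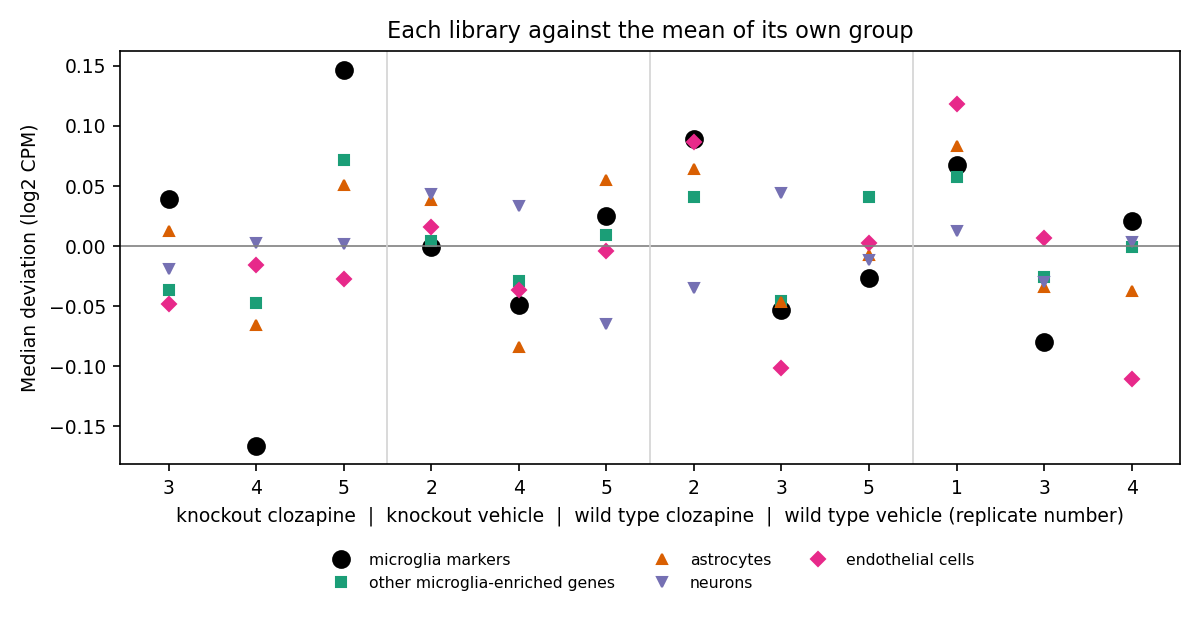
Median deviation from the group mean (log2 CPM) of the microglia markers and of 4 other gene lists in each library, grouped left to right as labelled below the axis. The markers (black) lie lowest in knockout clozapine 4 at -0.17 and highest in knockout clozapine 5 at 0.15.

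**Figure D5:**
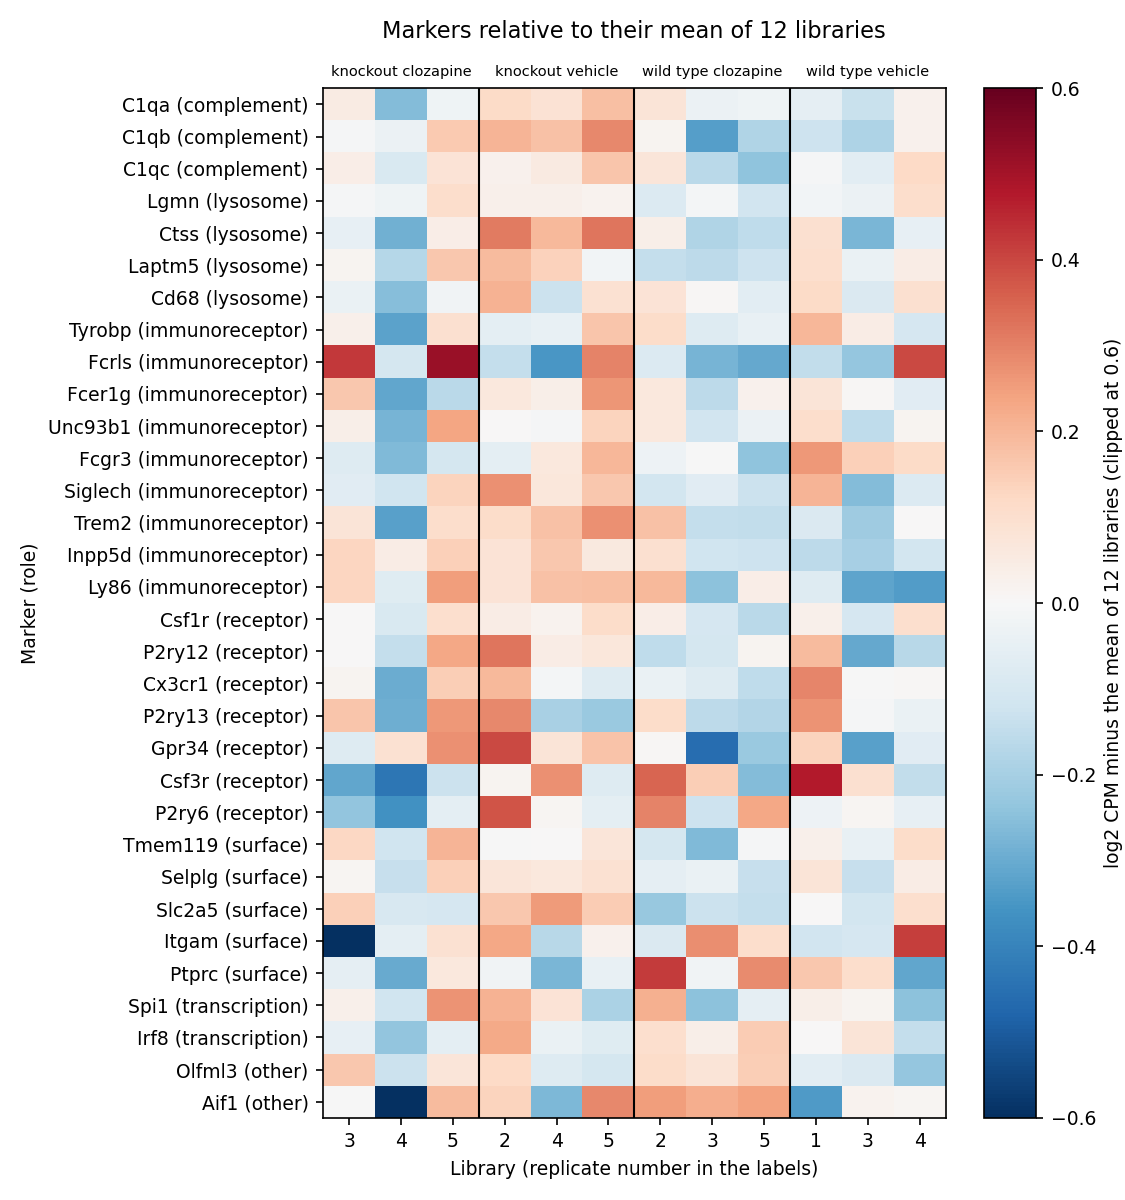
log2 CPM of each marker minus its mean of 12 libraries, with markers in rows by role and libraries in columns by group. The column of knockout clozapine 4 is blue in most rows, and the row of Fcrls is red in 4 libraries.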

How the data were processed

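The deposited table holds estimated counts per gene: per the labels and the submitters' processing notes the authors aligned reads with STAR 2.5.1b to GRCm38 and counted them with featureCounts. Strand use and the annotation are not given in the sources used here. The 3356 to 3596 values per library that were not whole numbers were rounded for testing. Gene identifiers were named with GENCODE mouse release 21, which named 46488 of 47069. Genes kept by filterByExpr (17286) were tested with edgeR 4.0.16 (TMM scaling, robust quasi-likelihood test, all 12 libraries in 1 fit), with Benjamini-Hochberg adjustment over all tested genes and a threshold of 0.05. CPM used unrounded counts over TMM-scaled library sizes, and TPM the union exon length. Deviations used the log2 CPM of edgeR with a prior count of 2, which is added to the counts and not to the CPM. Alternatives used limma 3.58.1, DESeq2 1.42.0, sva 3.50.0 and mgcv 1.9.3 in R 4.3.3, other scalings and filters, a replicate block and the omission of each library. Correlations and levels were computed in Python 3.11.15 with numpy 2.4.6. The fit was tested on simulated data.

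The markers and gene lists were chosen with earlier results of these data known. The text names markers that passed in any comparison, the 4 of smallest p where none passed, the 3 highest and 3 lowest per length, and from each other list reported the genes that passed or the 2 of smallest p. Other genes named were chosen after their values were seen. Results of some genes in the other lists are not reported here.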

Additional observations from a re-analysis of the deposited data

Results flagged for a closer look

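The effect of clozapine on Cx3cl1 differed between the genotypes by a test of the difference itself: the interaction on the log2 scale was 0.50 (edgeR quasi-likelihood test, adjusted p = 0.0288). With clozapine the log2 difference was 0.15 in the labelled knockout, where all 3 clozapine libraries lay above all 3 vehicle libraries, and -0.35 in wild type, where all 3 lay below. Across the fits without 1 library the adjusted p of the interaction lay between 0.0170 and 0.0813.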

How the results depend on the processing

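The number of markers called under vehicle between the genotypes was 3, and it was 0 with the replicate block, 1 with the length and GC correction and 0 to 4 without 1 library. Averaged over treatments it was 2, against 4 at a threshold of 0.10, 4 with 1 surrogate variable and 1 to 5 without 1 library. For clozapine in the labelled knockout it was 0, against 1 with 1 surrogate variable and 1 with DESeq2, and over all genes the calls numbered 4 by edgeR, 274 by DESeq2, 213 with no filter on low counts, 209 with 1 surrogate variable and 174 with the replicate block. The median marker difference under clozapine between the genotypes lay between -0.031 (without knockout clozapine 5) and 0.13 without 1 library. The median correlation over marker pairs was 0.42, between 0.23 and 0.48 without 1 library and 0.43 with plain library sizes, alternatives chosen after seeing the data. The cause of these shifts was not tested. For single genes 988 alternative values kept their direction and their side of the threshold, 147 kept their direction and lost the call, 2 gained it and 0 reversed. The 988 include genes that had not passed and so had no call to lose. All 147 losses fell on genes that had passed. Whether libraries of the same replicate number belong together could not be decided, since each deviation is taken from a mean of only 3 libraries. Over 10 pairs of the same number the correlation of deviations lay between -0.080 and 0.123, with 1 over 0.1. Pairs of different numbers lay between -0.208 and 0.150. The replicate block drops wild-type vehicle 1, the only library numbered 1. With the block the calls of Cx3cl1 under vehicle and of C1qb, Ctsz and Ifit2 averaged over treatments held. The other calls named in the report, the clozapine call in wild type and the interaction of Cx3cl1 among them, did not pass. With 3 libraries a group, a difference that missed the threshold is not shown to be absent.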

Other observations

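Fcrls, a scavenger receptor-like gene of microglia on chromosome 3 (GRCm38, 87250758 to 87263738), had the largest coefficient of variation of the 32 markers over the 12 libraries, 23.1%. It was at 23.5, 16.3 and 25.1 CPM in knockout clozapine libraries, 15.9, 13.7 and 21.5 CPM in knockout vehicle libraries, 16.6, 14.4 and 14.1 CPM in wild-type clozapine libraries and 15.8, 14.9 and 23.04 CPM in wild-type vehicle libraries. The high libraries did not follow the groups. Of the 17285 other tested genes, the one whose log2 CPM followed it most closely over the 12 libraries was Rps3a1, a ribosomal protein gene on the same chromosome (Pearson r = 0.93, a description of values that share libraries and scaling). Rps3a1 was at 225, 174 and 226 CPM in knockout clozapine libraries, 177, 161 and 188 CPM in knockout vehicle libraries, 188, 171 and 171 CPM in wild-type clozapine libraries and 167, 155 and 215 CPM in wild-type vehicle libraries. Rps3a3, annotated on chromosome 13, was at 2.68, 36.5 and 2.502 CPM in knockout clozapine libraries, 42.3, 39.6 and 44.0 CPM in knockout vehicle libraries, 43.3, 40.5 and 36.6 CPM in wild-type clozapine libraries and 41.7, 32.8 and 4.58 CPM in wild-type vehicle libraries. The 3 libraries lowest in Rps3a3 were the 3 highest in Fcrls, while knockout vehicle 5 was high in Fcrls and not low in Rps3a3. Rps3a1 and Rps3a3 are near-identical copies, so their split of reads is uncertain, and these genes were chosen after their values were seen.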
